A study of Mus musculus with 6 samples.

Results

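miR-23a, miR-24, miR-142-5p and miR-22* are 4 microRNAs (miRNAs) known from blood and marrow cells of the myeloid line, from which osteoclasts arise. They were selected by their assay names on a real-time PCR array, as a set put together with earlier results of these data known. They are 4 of the 104 miRNAs that had a threshold cycle (Ct) in all 6 samples, out of 707 miRNA assays listed. The order of their levels was the same in all 6 samples. With U6 as the normalizer, 0 of the 4 passed the test of surgery against Sham.

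The samples were osteoclasts, the cells that resorb bone, taken from mouse bone marrow by magnetic sorting on the receptors OSCAR and CTR. In the 3 ACLT samples the anterior cruciate ligament of the knee had been transected 2 weeks earlier, which destabilises the joint. In the 3 Sham samples the mice had a Sham operation, with the same interval. The series text says that equal amounts of RNA of 3 mice per group were pooled, and it is not given whether a sample is a mouse or a repeat run of a pool. A p-value here therefore covers only sample-to-sample spread, some of which can be technical. Of strain, sex and age nothing is stated. The mRNAs of the sorting receptors were not part of the array, so the sort could be checked against miRNAs only, and RNA content per cell cannot be told apart from the number of cells.

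A miRNA gene is transcribed as a long precursor that folds into a hairpin. The hairpin is cut into a short duplex, and usually the strand from 1 arm is kept as the guide while the other, the passenger, is largely degraded; an asterisk marks the less abundant strand in the older naming used on this array. The guide finds its target mRNAs mainly through its seed, bases 2 to 8 from the 5′ end. The mature sequences are shown because each assay is defined by the strand it was designed for. They were read from the deposited table, 5′ to 3′, with the seed in capitals:
miR-23a: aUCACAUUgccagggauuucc
miR-24: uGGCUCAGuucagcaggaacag
miR-142-5p: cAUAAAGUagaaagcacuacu
miR-22*: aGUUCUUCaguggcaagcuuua

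All 4 seeds differ. Each sequence is equal to a mature miRNA of RefSeq on mouse build GRCm38.p6, namely miR-23a-3p, miR-24-3p, miR-142a-5p and miR-22-5p. The only other assay listed with the seed of a member is miR-23b, which carries the seed of miR-23a and differs from it at a single base, U19A, counted from the 5′ end with the base of miR-23a first. No other assay listed shares the seed of miR-24, miR-142-5p or miR-22*.

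miR-23a and miR-24 can come from a common primary transcript. The hairpins of Mir23a (chr8:84208518-84208592) and Mir24-2 (chr8:84208815-84208921) lie on the plus strand with Mir27a between them, and the stretch from the start of Mir23a to the end of Mir24-2 is 404 bases long. The same mature miR-24 is also made from Mir24-1 (chr13:63301208-63301275), which lies with Mir23b and Mir27b on chromosome 13, so the assay reads the product of both genes together. Mir142 (chr11:87756864-87756927) and Mir22 (chr11:75463716-75463810) lie apart on chromosome 11, the second within the bounds of the long noncoding RNA gene Mir22hg. The RefSeq hairpins show which arm was measured, in capitals, and where the other arm lies:
Mir23a: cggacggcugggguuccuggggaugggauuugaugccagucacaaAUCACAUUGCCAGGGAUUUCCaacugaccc
Mir24-2: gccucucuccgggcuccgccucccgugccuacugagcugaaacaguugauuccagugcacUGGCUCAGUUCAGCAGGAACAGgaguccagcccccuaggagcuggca
Mir142: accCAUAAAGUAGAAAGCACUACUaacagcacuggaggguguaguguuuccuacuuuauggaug
Mir22: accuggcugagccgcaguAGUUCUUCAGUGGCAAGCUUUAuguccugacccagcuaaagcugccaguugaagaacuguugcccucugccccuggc

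Of 9 further assays for arms and paralogs of these genes, 8 were listed as Null in all 6 samples. These were miR-142-3p, which is the other arm of miR-142-5p, miR-22, the guide strand opposite miR-22*, and miR-24-1* and miR-24-2*, the 2 passenger strands of miR-24. The remaining Null assays were miR-23b, miR-27a, miR-27a* and miR-27b*. miR-27b was the exception, with a mean Ct of 29.4 in ACLT and 29.8 in Sham. No line was found for miR-23a* and miR-23b*. A Null gives no level and no upper limit here, since the deposited tables do not say how it was set. For Mir142 and Mir22 the Null strand is one that is usually abundant. Sequences are therefore shown for miR-142-3p, miR-22, miR-23b and miR-27a, which had no Ct, and for miR-27b, which had one:
miR-142-3p: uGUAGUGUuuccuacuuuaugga
miR-22: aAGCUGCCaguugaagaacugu
miR-23b: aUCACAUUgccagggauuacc
miR-27a: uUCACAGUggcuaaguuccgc
miR-27b: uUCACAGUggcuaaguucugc

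miR-27a and miR-27b have the same seed and differ by C19U (base of miR-27a first). The miR-27 member of the chromosome 8 transcript was thus Null while miR-23a and miR-24 had a Ct, and of the chromosome 13 transcript miR-27b had a Ct while miR-23b was Null.

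As background, PU.1, the transcription factor that commits progenitors to the myeloid line, is known to activate the mouse miR-23a cluster, and its forced expression favours myeloid over B-lymphoid cells. miR-23a represses glutaminase in human B cells, and miR-24 represses the activin receptor ALK4 in human erythroid cells. Mir142 is transcribed across the blood lineages and little elsewhere. miR-22 is made in many tissues and represses TET2 in mouse blood stem cells.

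The marker list for myeloid and blood cells had 14 assays on the array, of which 6 had a Ct and 8 were Null. With the 4 members the measured ones were miR-21 and miR-146a. miR-223, which is known from granulocytes and monocytes, and miR-155, which is induced in activated macrophages, were Null in all 6 samples, like miR-142-3p. The summed level of the list relative to U6, on a linear scale, was 66.8 to 81.1 in ACLT and 6.18 to 16.2 in Sham. In ACLT most of that sum was miR-21, at a level of 5.90 ± 0.30 on the log2 scale against 1.43 ± 0.31 in Sham (SD, n = 3 each). The erythroid list had a Ct for 3 of 3 assays, with sums of 0.517 to 0.991 in ACLT and 0.328 to 0.519 in Sham. The lymphoid list had 3 of 5, with sums of 0.969 to 3.97 and 0.763 to 1.76. The mesenchymal list had 6 of 7, with sums of 37.9 to 52.4 and 5.56 to 7.88. The sums of the myeloid and of the mesenchymal list do not overlap between the groups. Of the 100 single miRNAs tested below, 26.0% did not overlap either. The sums were taken with U6 alone, and the changes below depended on the normalizer. In the mesenchymal list the highest level in ACLT was that of miR-214, at 4.47 against 1.03 in Sham (log2 scale). The members of the mesenchymal list differed in direction. On the log2 scale miR-214, miR-145, miR-199a-3p and miR-218 were higher in ACLT, by 3.435, 2.61, 2.43 and 0.37. miR-143 and miR-152 were lower, at -0.67 and -0.76. The erythroid and lymphoid lists were split as well. miR-451 was higher in ACLT, by 1.21, while miR-144 and miR-486 were lower, at -0.54 and -0.62. miR-150 was higher, by 1.08, while miR-181a and miR-181d were lower, at -1.32 and -0.40. The endothelial list had 1 of 2, miR-126-3p, at 0.628 to 1.40 and 0.565 to 1.08. The part of other cells in the members' values was not tested.

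In most wells, sample 3 of a group was tied to sample 2 by a constant. In ACLT the Ct of sample 3 was that of sample 2 multiplied or divided by 0.99, within 0.002 cycles, in 77 of 110 wells. In Sham the factor was 0.97843, in 82 of 110 wells. miR-23a, miR-24 and miR-142-5p were on the factor in both groups, and miR-22* was on it in ACLT alone. In ACLT the Ct was multiplied by 0.99 for miR-23a, miR-142-5p and miR-22* and divided by 0.99 for miR-24. For these wells an n of 3 holds a value that is not independent, so each SD and p-value below is to be read with that limit. The change of each member, and the group difference of each pair of members, is also given with samples 2 and 3 averaged.

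The Ct values also followed the order of the wells in part, most of all in ACLT sample 1. On plate 1, which held 95 measured miRNAs, the wells were put in order of their Ct in ACLT sample 1. Of the 94 steps from a Ct to the next higher one, 76 led to a later well. In the other 5 samples, each put in its own order, 59 to 65 of 94 steps did, which is also more than led to an earlier well. From miR-24 upward in ACLT sample 1 there were 34 wells, and 33 of 33 steps led to a later well. In the other samples the count from miR-24 upward was 23 of 28 and 18 of 23 (ACLT samples 2 and 3) and 14 of 18, 10 of 15 and 20 of 28 (Sham samples 1, 2 and 3). The 2 wells next above miR-24 in ACLT sample 1 were those of miR-26a, 0.010 cycles higher, and miR-27b, 0.014 cycles higher. The next above miR-23a was miR-25, 0.014 cycles higher, in a later well. This order was found after the values were seen, it is given with no test, and its part in the members' values was not tested.

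**Figure D1:**
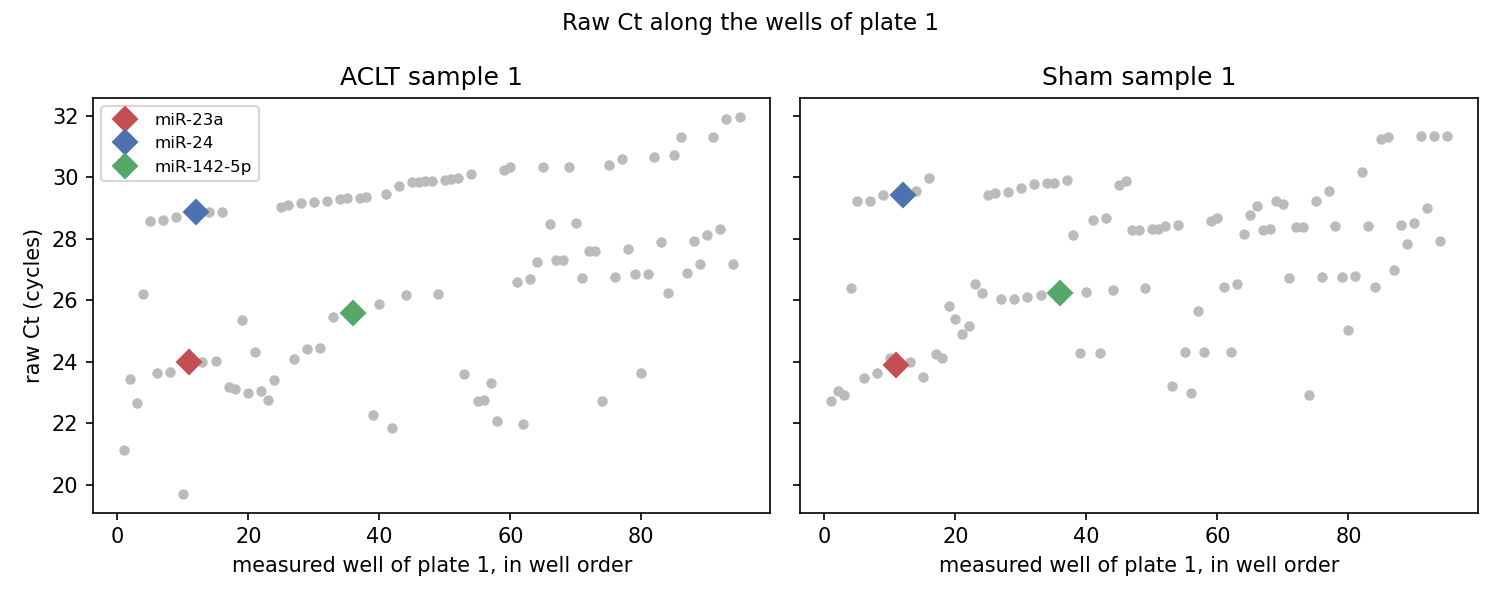
Raw Ct (cycles) of the 95 measured miRNAs of plate 1 against their place in well order, in ACLT sample 1 and Sham sample 1, with miR-23a, miR-24 and miR-142-5p as coloured diamonds and the other miRNAs in grey. In ACLT sample 1 the wells from miR-24 upward form a line on which 33 of 33 steps to the next higher Ct lead to a later well.

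Levels are given as minus ΔCt, that is, the Ct of U6 in the same sample and plate minus the Ct of the miRNA. This is a log2 scale on which higher is more RNA. The order of the members was miR-23a, miR-142-5p, miR-24 and miR-22* in each of the 6 samples. Different assays can amplify with different efficiency, so this order compares assay signals and not molecule numbers.

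miR-23a was the most abundant of the 4. Its raw Ct was 23.98, 23.289 and 23.056 in ACLT samples 1, 2 and 3 and 23.905, 23.525 and 23.018 in Sham samples 1, 2 and 3. The groups overlap almost fully, and sample 1 has the highest Ct in each. By mean Ct it ranked 14 among the 104 miRNAs in ACLT and 5 in Sham, where 1 is the lowest Ct. Relative to U6 its level was 1.956, 2.842 and 3.809 in ACLT (2.87 ± 0.93, SD, n = 3) and 1.441, 3.377 and 3.435 in Sham (2.75 ± 1.13). Sample 1 is again the low sample of both groups.

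miR-24 had a raw Ct of 28.86, 29.509 and 29.807 in ACLT and 29.424, 29.803 and 29.161 in Sham. The Sham values lie within the range of the ACLT values. It ranked 67 in ACLT and 74 in Sham. Its level was -2.924, -3.378 and -2.942 in ACLT (-3.08 ± 0.26, n = 3) and -4.078, -2.901 and -2.708 in Sham (-3.23 ± 0.74). The lowest level, in Sham sample 1, came with the lowest U6 Ct of plate 1, 25.346 cycles against 25.936 to 26.902 in the other samples.

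miR-142-5p, the strand from the 5′ arm of Mir142, had a raw Ct of 25.586, 26.819 and 26.551 in ACLT and 26.233, 26.957 and 26.375 in Sham. It ranked 37 in both groups. Its level lay close to that of U6, at 0.350, -0.688 and 0.314 in ACLT (-0.0080 ± 0.59, n = 3) and at -0.887, -0.055 and 0.078 in Sham (-0.29 ± 0.52). ACLT sample 2 and Sham sample 1 are the low samples, and the groups overlap.

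miR-22* was the only member on plate 2 and close to the limit of the assay. Its raw Ct was 34.503, 34.931 and 34.582 in ACLT and 34.094, 33.351 and 34.654 in Sham, all 6 under the Ct limit of 35 used for testing. It ranked 98 in ACLT and 100 in Sham. Its level was -8.818, -8.830 and -8.261 in ACLT (-8.64 ± 0.33, n = 3) and -8.283, -6.523 and -8.710 in Sham (-7.84 ± 1.16). Sham sample 2 stands above the other 5 samples, which lie between -8.830 and -8.261.

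**Figure D2:**
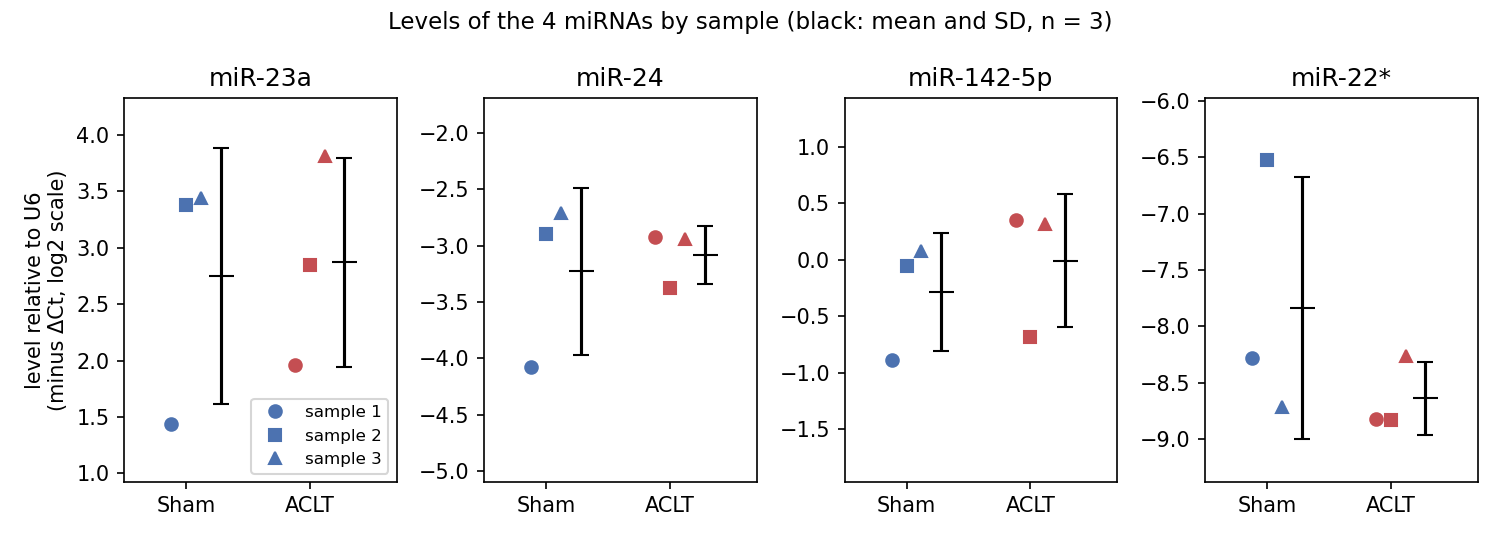
Level of each miRNA relative to U6 (minus ΔCt, log2 scale) in the 3 Sham samples (blue) and the 3 ACLT samples (red), with the mean and SD of each group in black and sample 1, 2 and 3 as circle, square and triangle. The panels span the same number of log2 units; the groups overlap in each. Sham sample 1 is the lowest sample of miR-23a, miR-24 and miR-142-5p, and Sham sample 2 the highest of miR-22*.

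Surgery was set against Sham to find osteoclast miRNAs whose level differs once the knee is destabilised. It was fitted with limma over the 100 miRNAs whose Ct stayed under 35 throughout 1 group or both, with Benjamini-Hochberg adjustment over all 100. All 4 members were tested and 0 of 4 passed an adjusted p of 0.05, where 20.0% of the 100 did (13.0% higher and 7.00% lower in ACLT). At an unadjusted limma p under 0.05 there were 0 of 4 and 27 of 100. The groups overlapped for all 4 members, whereas they did not overlap for 26.0% of the 100. 3 of the 4 changes were above 0 and 1 below, against 59 and 41 of all 100. The median change was 0.13 over the members and 0.24 over all 100.

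The changes of the members of the chromosome 8 cluster were small. The change of miR-23a was 0.12 ± 0.58 (SE, log2 scale, ACLT minus Sham), with a limma adjusted p = 0.883 and a 95% interval of -1.02 to 1.26. That interval runs from 0.493-fold to 2.39-fold. miR-24 stood at 0.15 ± 0.59 (adjusted p = 0.864 by limma; -1.02 to 1.31). By the size of the change these were places 95 and 93 of 100. With samples 2 and 3 averaged, miR-23a stood at 0.22 and miR-24 at 0.40, with limma adjusted p-values of 0.891 and 0.819. A change of 2-fold in either direction lies within both intervals, so it could not be told from no change. Sham sample 1 set the direction of both: without it miR-23a stood at -0.54 and miR-24 at -0.28. Without ACLT sample 3, miR-23a stood at -0.35.

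miR-142-5p stood at 0.28 ± 0.64 (limma adjusted p = 0.779; -0.98 to 1.54), place 85 of 100 by size. With samples 2 and 3 averaged it was 0.52 (adjusted p = 0.791), and without Sham sample 1 it was -0.0195. miR-22* had the largest change of the members, at -0.80 ± 0.82 (limma adjusted p = 0.577; -2.40 to 0.81), place 45 of 100. With samples 2 and 3 averaged it stood at -0.73 (adjusted p = 0.754), a setting that in Sham merges values not tied to each other. Without Sham sample 2 it was -0.14, and without Sham sample 3 it was -1.23. The authors' deposited table gives ratios of ACLT to Sham of 1.09 for miR-23a, 1.11 for miR-24, 1.21 for miR-142-5p and 0.575 for miR-22*; they come from the same group means. limma pooled the spread over all 100 miRNAs (400 degrees of freedom), as if the wells of a sample were independent, so the intervals may be too narrow.

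miR-27b, the remaining measured miRNA of the chromosome 13 transcript that can also give miR-24, stood at 0.48 ± 0.59 (limma adjusted p = 0.612). The other measured miRNAs of the myeloid list were miR-21, at 4.47 ± 0.55 (limma adjusted p = 4.73e-13), and miR-146a, at 1.04 ± 0.64 (adjusted p = 0.296). So with U6, 1 of 6 of that list passed higher in ACLT and 0 of 6 passed lower. Of the 100 tested, 13.0% passed higher and 7.00% lower, so the count is near the share over all miRNAs. With reference 2, an unnamed reference assay of each plate, 0 of the 100 passed, so miR-21 did not pass there. On plate 1 reference 2 varied more between samples than U6. Its SD was 1.44 cycles (ACLT) and 1.13 (Sham), against 0.49 and 0.80 for U6 (n = 3 each). The limma SE of miR-23a was 1.39 there and 0.58 with U6. In raw cycles, ACLT minus Sham was -4.389 for miR-21 and -0.566 for reference 2 itself. Not passing there therefore does not show that the change of miR-21 was absent.

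The direction of the members depended on the normalizer. With U6, miR-23a, miR-24 and miR-142-5p stood above 0. With reference 3, an unnamed reference assay of each plate, all 4 members passed as lower, miR-23a at -2.62 (limma adjusted p = 0.00192), miR-24 at -2.59 (0.000168), miR-142-5p at -2.45 (0.000445) and miR-22* at -3.51 (7.92e-05). In that setting 88 of 100 miRNAs passed and the median change of all 100 was -2.50. On plate 1 reference 3 itself had a Ct of 28.3 ± 0.79 (ACLT) against 31.0 ± 0.53 (Sham), and U6 a Ct of 26.3 ± 0.49 against 26.2 ± 0.80, each with SD and n = 3. Set against the median change of all 100 miRNAs, miR-23a lay between -0.79 and -0.12 under the 7 scalings tried, U6 included, and miR-142-5p between -0.031 and 0.11. miR-24 lay between -0.16 and 0.57, and miR-22* between -1.03 and 0.81, above 0 after quantile normalization alone for both. On raw Ct without a normalizer, where a value below 0 is more RNA in ACLT, ACLT minus Sham was -0.041 cycles for miR-23a, -0.071 for miR-24, -0.20 for miR-142-5p and 0.64 for miR-22*.

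**Figure D3:**
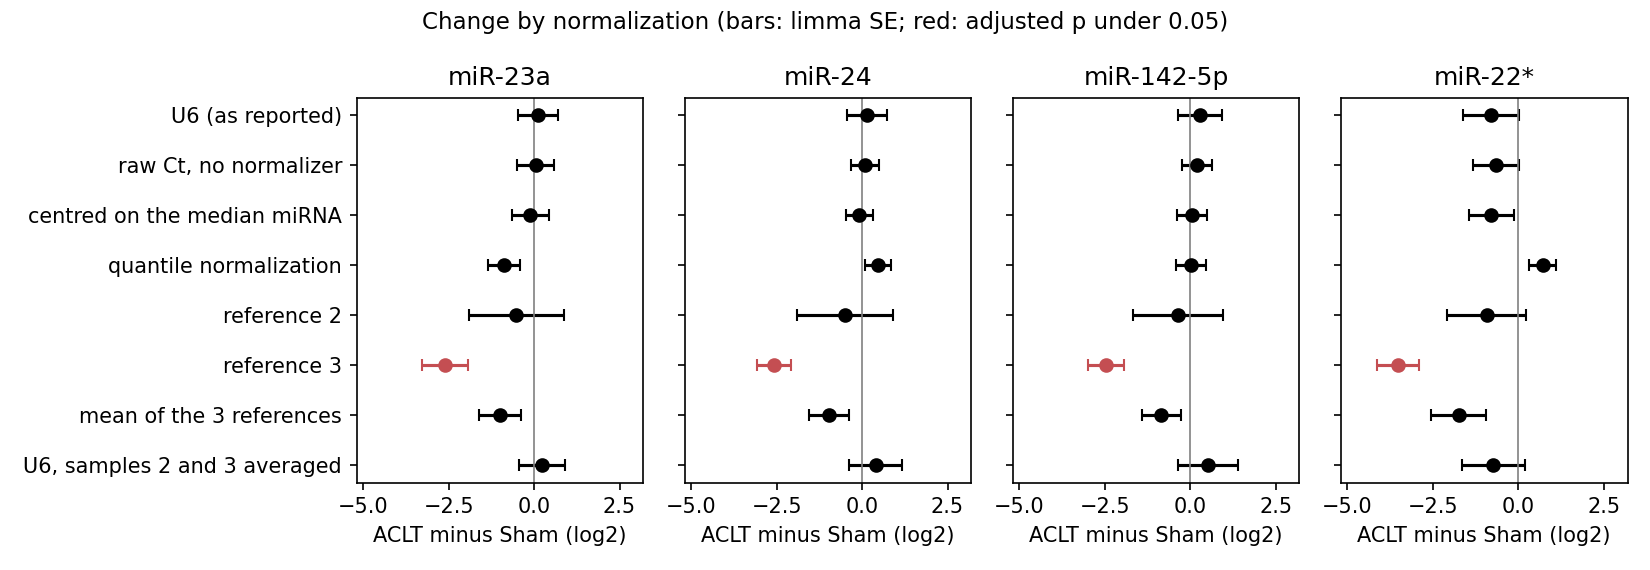
Change of each miRNA (ACLT minus Sham, log2 scale) by normalizer, with limma SE as bars and red where the adjusted p is under 0.05. Reference 3 is the setting in which all 4 miRNAs are red, between -2.45 and -3.51; under U6 none is.

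A difference between 2 members within a sample is left unchanged when the Ct of a reference is subtracted, where both are on the same plate, as miR-23a, miR-24 and miR-142-5p are. Quantile normalization, which rescales each sample by rank, can change it. The 6 pairs of members were compared between groups by exact two-sided permutation tests over samples, whose smallest possible p with 3 against 3 is 0.1. For miR-23a, miR-24 and miR-142-5p sample 3 is tied to sample 2. The p-values and spreads of their pairs therefore rest on fewer independent values than 3 per group. miR-23a exceeded miR-24 by 4.88, 6.22 and 6.751 in ACLT and by 5.519, 6.278 and 6.143 in Sham (log2 scale). The means were 5.95 ± 0.96 and 5.98 ± 0.40 (SD, n = 3 each), which at full efficiency is a factor of 61.8 and 63.1. The difference between the groups was -0.030 (exact permutation p = 0.9; adjusted over the 6 pairs, p = 1). ACLT sample 1 has the smallest gap, and without it the difference between groups was 0.51. After quantile normalization it was -1.36 (exact permutation p = 0.1, not adjusted). Although both miRNAs can come from the chromosome 8 transcript, their mean signals thus lay about 6 log2 units apart in both groups.

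miR-23a exceeded miR-142-5p by 2.88 ± 1.10 in ACLT and 3.04 ± 0.62 in Sham, a group difference of -0.16 (exact permutation p = 1, n = 3 each). Without ACLT sample 1, which has the smallest gap of 1.606, the group difference was 0.47. The difference miR-24 minus miR-142-5p was -3.07 ± 0.33 in ACLT and -2.94 ± 0.22 in Sham, a group difference of -0.13 (exact permutation p = 0.8). After adjustment over the 6 pairs both had p = 1 in these exact tests. miR-24 minus miR-142-5p had the narrowest spread of the 6 pairs, from -3.274 to -2.690 over the 6 samples. Its values in ACLT samples 2 and 3, -2.690 and -3.256, are tied by the factor, which went in opposite directions for these miRNAs.

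The 3 pairs with miR-22* cross plates and had the largest group differences, 0.92 for miR-23a, 0.95 for miR-24 and 1.08 for miR-142-5p, each over miR-22*. Their exact permutation p-values were 0.4, 0.4 and 0.3, and 0.8 for each after adjustment over the 6 pairs. miR-24, the next member above miR-22*, exceeded it by 3.622 to 6.002 over the 6 samples. After quantile normalization these 3 differences and that of miR-24 minus miR-142-5p had the opposite sign. Relative to U6 all 6 pairs overlapped between the groups.

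**Figure D4:**
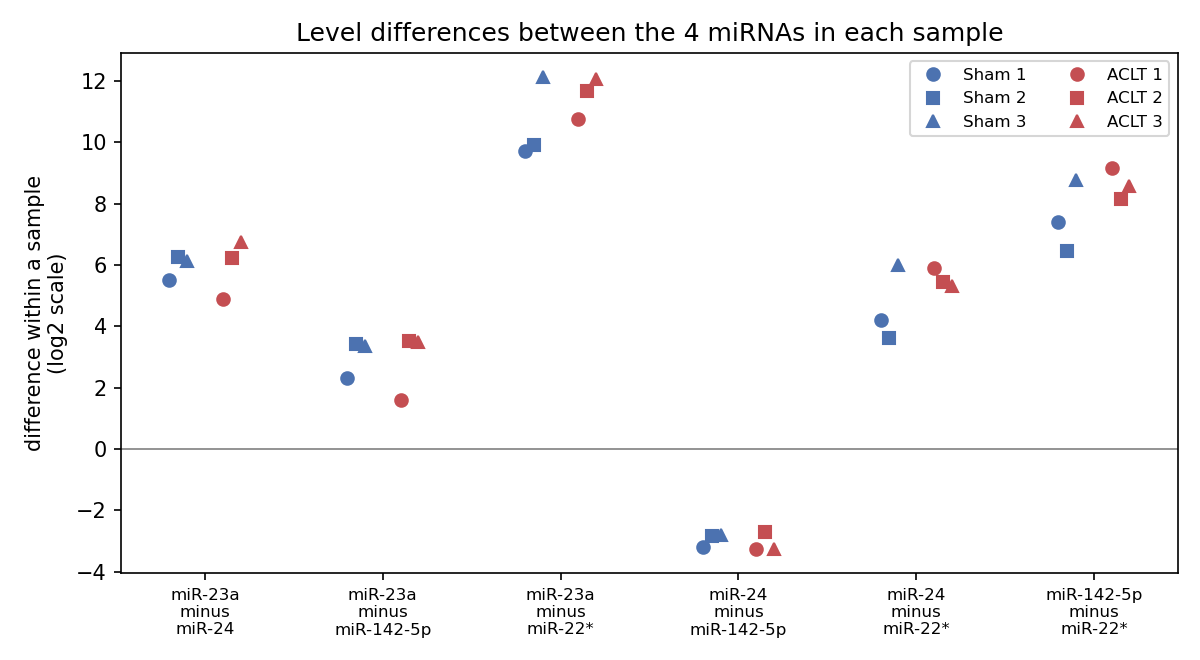
Difference in level between 2 of the miRNAs within each sample (log2 scale), for the 6 pairs, with Sham in blue, ACLT in red and sample 1, 2 and 3 as circle, square and triangle. Red and blue points overlap in every pair; miR-24 minus miR-142-5p has the narrowest range, -3.274 to -2.690.

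Likeness between miRNAs was measured as the Euclidean distance between their profiles over the 6 samples, each centred on its own mean, against the 102 other miRNAs with a ΔCt. For miR-24 the nearest were miR-7a and miR-26a, at 0.091 and 0.097 log2 units, where the median distance to all 102 was 1.65. Over the 6 samples the Ct of miR-7a minus that of miR-24 was -0.139 to -0.010 cycles, and the Ct of miR-26a minus that of miR-24 was 0.010 to 0.130 cycles. For miR-142-5p the nearest was miR-126-3p at 0.10, whose Ct minus that of miR-142-5p was -0.139 to -0.016 cycles, and then miR-24 at 0.59. For miR-23a they were let-7i at 0.27 and miR-25 at 0.66. For miR-22* they were miR-361 at 0.84 and miR-340-5p at 1.08, both on the other plate. Counted in measured wells, miR-7a and miR-26a lay 3 and 2 wells from miR-24, miR-126-3p lay 3 wells from miR-142-5p, and let-7i and miR-25 lay 3 and 2 wells from miR-23a. All 5 were on the factor in both groups. These distances are a description over 6 samples that share a normalizer and, in part, values.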

How the data were processed

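Trizol RNA was used, per the labels' protocols; the QuantiMir kit served for reverse transcription, and SYBR Green PCR ran for 40 cycles on a ViiA7. The deposited tables hold raw Ct, ΔCt on a log2 scale and the authors' ratio of ACLT to Sham, normalized to U6 per the file headers. ΔCt was recomputed as raw Ct minus the U6 well of the plate, with a largest deviation of 1.8e-15. Of 719 lines, 2 wells were listed 2 times and the line with values was used; a further 2 lines of ΔCt were not used here. How the Ct threshold was set is not stated, and an array has no read depth.

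Fits used limma 3.58.1 in R 4.3.3 (lmFit, eBayes with a trend), and were tested on simulated data. The simulated noise was independent between samples and wells, without the tie between samples 2 and 3. That test therefore does not cover the error rate in these data. Permutation tests used scipy 1.17.1 and pandas 2.3.3 in Python 3.11.15. The alternatives were 6 other scalings, other Ct limits and variance models, a replicate block, samples 2 and 3 averaged, samples 1 and 2 only, and leaving out each sample. The named miRNAs are the members, their other arms and paralogs, miRNAs of the myeloid and the other marker lists, and the 2 nearest profiles of each member. Members and lists were chosen with earlier results of these data known.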

Additional observations from a re-analysis of the deposited data

How the results depend on the processing

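The count of passing members was 0 of 4 in each setting except reference 3, where it was 4. Centred on the median miRNA, miR-23a stood at -0.11 and miR-24 at -0.082. After quantile normalization miR-23a stood at -0.88 and miR-22* at 0.71. With reference 2, miR-23a, miR-24 and miR-142-5p stood at -0.53, -0.50 and -0.36, with the mean of the 3 references at -1.01, -0.98 and -0.85, and with reference 3 at -2.62, -2.59 and -2.45 (miR-22* at -3.51). With samples 1 and 2 only, miR-23a stood at -0.010. Leaving out each sample gave -0.54 to 0.57 for miR-23a, -0.28 to 0.41 for miR-24, -0.0195 to 0.62 for miR-142-5p and -1.23 to -0.14 for miR-22*. The group difference of miR-23a minus miR-24 then ranged from -0.43 to 0.51, and that of miR-23a minus miR-142-5p from -0.52 to 0.47. With samples 2 and 3 averaged, the group difference was -0.18 for miR-23a minus miR-24. It was -0.30 for miR-23a minus miR-142-5p and -0.12 for miR-24 minus miR-142-5p. Over miR-22* it was 0.95 for miR-23a, 1.13 for miR-24 and 1.25 for miR-142-5p. After quantile normalization, a setting added for the pairs after seeing the data, the group difference was -1.60 for miR-23a, -0.24 for miR-24 and -0.69 for miR-142-5p, each over miR-22*, and 0.46 for miR-24 minus miR-142-5p, all with the sign turned. Where a direction turned, the cause was not tested. The sign was kept in 12 of 20 alternatives for miR-23a, 15 of 20 for miR-24, 16 of 20 for miR-142-5p and 18 of 19 for miR-22*, which a Ct limit of 32 left untested. These counts include the Ct limits, the variance models and the replicate block. Those leave a member's estimate as it is, so the sign could not turn there, and the counts do not measure stability.

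Over all miRNAs the count of 20 became 0 under reference 2 (limma; 2 at an unadjusted p under 0.05), 88 under reference 3, 40 under the 3 references' mean and 35 after median centring. Averaging samples 2 and 3 gave 11, keeping samples 1 and 2 alone gave 3, and dropping any 1 sample gave 13 to 30. The deviations of same-numbered samples correlated at 0.25, 0.056 and 0.066 over 100 miRNAs. The labels link these samples by a number only. Whether they are paired cannot be decided from these values, since the wells of a sample are not independent. The replicate block gave 14 passing miRNAs, 0 of them members, and left the members' changes as they were (adjusted p = 0.875, 0.881, 0.750 and 0.666 by limma for miR-23a, miR-24, miR-142-5p and miR-22*). Groups of 3 samples were not searched for outlying samples. miR-22* lay within 2 cycles of the Ct limit of 35 in each sample.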
